A study of Mus musculus with 3 samples.

Results

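The 7 inhibitor genes of the cyclin-dependent kinases were examined for open chromatin in BCR::ABL1+ mouse cells that carried wildtype or kinase-inactive CDK6. They were chosen by name, 4 of the INK4 family (Cdkn2a, Cdkn2b, Cdkn2c and Cdkn2d) and 3 of the CIP/KIP family (Cdkn1a, Cdkn1b and Cdkn1c), out of 21951 protein-coding genes of the annotation. Together they have 10 promoters of 43865 in all, where a promoter is the window from 2000 bp before to 200 bp after a transcription start and overlapping windows of a gene count as 1. The gene bodies with 20 kb on both sides held 30 regions of open chromatin out of 50965.

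INK4 proteins bind CDK4 and CDK6 and keep them from cyclin D, which leaves the retinoblastoma protein able to hold back E2F-driven entry into S phase. CIP/KIP proteins bind complexes of cyclins with CDKs more broadly and are best known as inhibitors of CDK2. Cdkn2a is unusual in that separate promoters and first exons, spliced to shared downstream exons, encode unrelated proteins: p16INK4a, an INK4 inhibitor, and p19ARF, which stabilises p53 by binding MDM2. Loss of this locus is frequent in B-lymphoid leukemia, and Polycomb repression commonly keeps it closed in cycling cells.

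Accessibility was measured by ATAC-seq, in which a transposase cuts and tags open DNA. Bone marrow of C57BL/6 mice that were homozygous for wildtype Cdk6 (Cdk6+/+) or for the K43M allele (Cdk6KM/KM), whose product lacks kinase activity, was transduced with a retrovirus carrying BCR-ABL(p185) and GFP, so that all lines share the oncogene. Each list of peaks came from 1 outgrown pre/pro-B-cell line, and there were 2 lines per genotype. The K43M replicates 1 and 2 and WT replicate 2 carried labels, whereas the list called WT unnumbered carried none and was taken as the other Cdk6+/+ line from the text of the series. That text says that the first WT line was reanalysed, and a batch difference between it and the other lines was not tested. With 2 lines per genotype, effects of the genotype and of the outgrowth of single lines cannot be told apart, and the smallest two-sided p of an exact permutation test is 0.333.

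The 4 lists held between 33038 and 39038 peaks. Of 9 B-lineage marker genes, 7 had a promoter peak in every list and Cd79b and Rag1 had one in every list except K43M replicate 2. None of 5 myeloid and none of 3 erythroid or megakaryocyte markers had one in any list, and of 5 T or NK markers Lck alone did. Of 4 non-blood markers, Gfap had one in WT replicate 2 only and the others had none. Depth is known only through the recovered background, which ranged from 48.4 to 65.3 read ends per 10 kb.

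The sequences before 4 of the starts are shown because much of the text below describes peaks at these starts. They are RefSeq promoter sequences of GRCm38.p6, written 5′ to 3′ on the strand of the gene and ending 1 base before the first annotated start. Capitals mark matches on either strand to any motif searched, which were GGGCGG (SP1), CCAAT (NFY), CCGGAAG (ETS), TTTGGCGC, TTTCGCGC or GCGGGAAA (E2F), CACGTG (E-box), TTCNNNGAA (STAT), TGTGGT (RUNX) and TGANTCA (AP-1). The first is the p19ARF promoter at chr4:89294654-89294869, minus strand, which carried peaks in the K43M lists only. The second is the p16INK4a promoter at chr4:89282193-89282442, minus strand, which lies in the first intron of the p19ARF transcript. The third is the Cdkn2b promoter at chr4:89311040-89311282, minus strand, upstream of both. The fourth is the second promoter of Cdkn1a at chr17:29093519-29093768, plus strand, whose peak was missing from 1 list.
Cdkn2a p19ARF: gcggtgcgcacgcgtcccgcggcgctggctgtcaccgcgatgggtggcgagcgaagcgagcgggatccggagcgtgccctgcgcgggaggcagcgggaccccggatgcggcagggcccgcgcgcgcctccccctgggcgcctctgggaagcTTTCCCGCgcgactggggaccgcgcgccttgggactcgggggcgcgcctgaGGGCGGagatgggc
Cdkn2a p16INK4a: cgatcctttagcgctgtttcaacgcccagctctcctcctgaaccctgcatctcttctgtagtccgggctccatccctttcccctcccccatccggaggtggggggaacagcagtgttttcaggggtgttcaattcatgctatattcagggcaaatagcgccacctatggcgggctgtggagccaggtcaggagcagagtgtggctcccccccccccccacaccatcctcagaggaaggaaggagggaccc
Cdkn2b: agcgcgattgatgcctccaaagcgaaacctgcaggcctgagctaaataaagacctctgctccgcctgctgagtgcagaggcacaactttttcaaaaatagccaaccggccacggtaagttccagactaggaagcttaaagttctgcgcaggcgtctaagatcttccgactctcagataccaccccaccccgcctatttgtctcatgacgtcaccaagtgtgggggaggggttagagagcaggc
Cdkn1a, second promoter: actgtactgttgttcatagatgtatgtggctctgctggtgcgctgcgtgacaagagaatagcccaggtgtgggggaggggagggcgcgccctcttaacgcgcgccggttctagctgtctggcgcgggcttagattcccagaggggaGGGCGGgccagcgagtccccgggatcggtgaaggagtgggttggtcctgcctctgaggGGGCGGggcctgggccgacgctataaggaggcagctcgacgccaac

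The p19ARF promoter is the most GC-rich of these. In the 250 bases before the RefSeq start GC made up 78.4%, a level that 1.93% of 32851 RefSeq promoters reach, against 60% before p16INK4a and 53.6% before Cdkn2b. Its ratio of observed to expected CpG was 1.08, compared with 0.316 and 0.670. Promoters open in all lists reached similar levels. GC made up 77.2% before the upstream RefSeq start of Cdkn2c, with 3 GGGCGG matches. The CpG ratio before Cdkn1b was also 1.08. An E2F match lay 65 to 58 bases before the annotated start and a GGGCGG match 14 to 9 bases before it. E2F matches of these letters are in 1.53% of all promoters and GGGCGG matches in 32.7%. The p16INK4a and Cdkn2b sequences held none of the motifs searched, and the second promoter of Cdkn1a held GGGCGG at 104 to 99 and at 46 to 41 bases before its start. RefSeq had 9 sequences for 6 of the 7 genes, and Cdkn1c is named only.

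Of the 10 promoters, 5 had a peak in all 4 lists, namely those of p16INK4a, Cdkn2b, Cdkn2c, Cdkn2d and Cdkn1b. Among all promoters 25.4% had a peak in every list and 67.3% had none. A single inhibitor promoter, that of p19ARF, had a peak in both K43M lists and in neither WT list, a pattern found in 1.56% of all promoters. No inhibitor promoter had a peak in the WT lists alone, which 0.397% of all promoters did. The first promoter of Cdkn1a had no peak in any list, and the remaining 3 had a peak in some lists. None of these counts changed when the list WT unnumbered was left out. Without K43M replicate 2, the promoters of Cdkn1c and the third of Cdkn1a joined p19ARF, so that 3 were open in K43M alone, and the second of Cdkn1a was the 1 open in WT alone. The K43M-only pattern then rests on K43M replicate 1 alone. The shares of 1.56% and 0.397% do not apply to this setting, and the shares over all promoters were not computed for it.

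**Figure D1:**
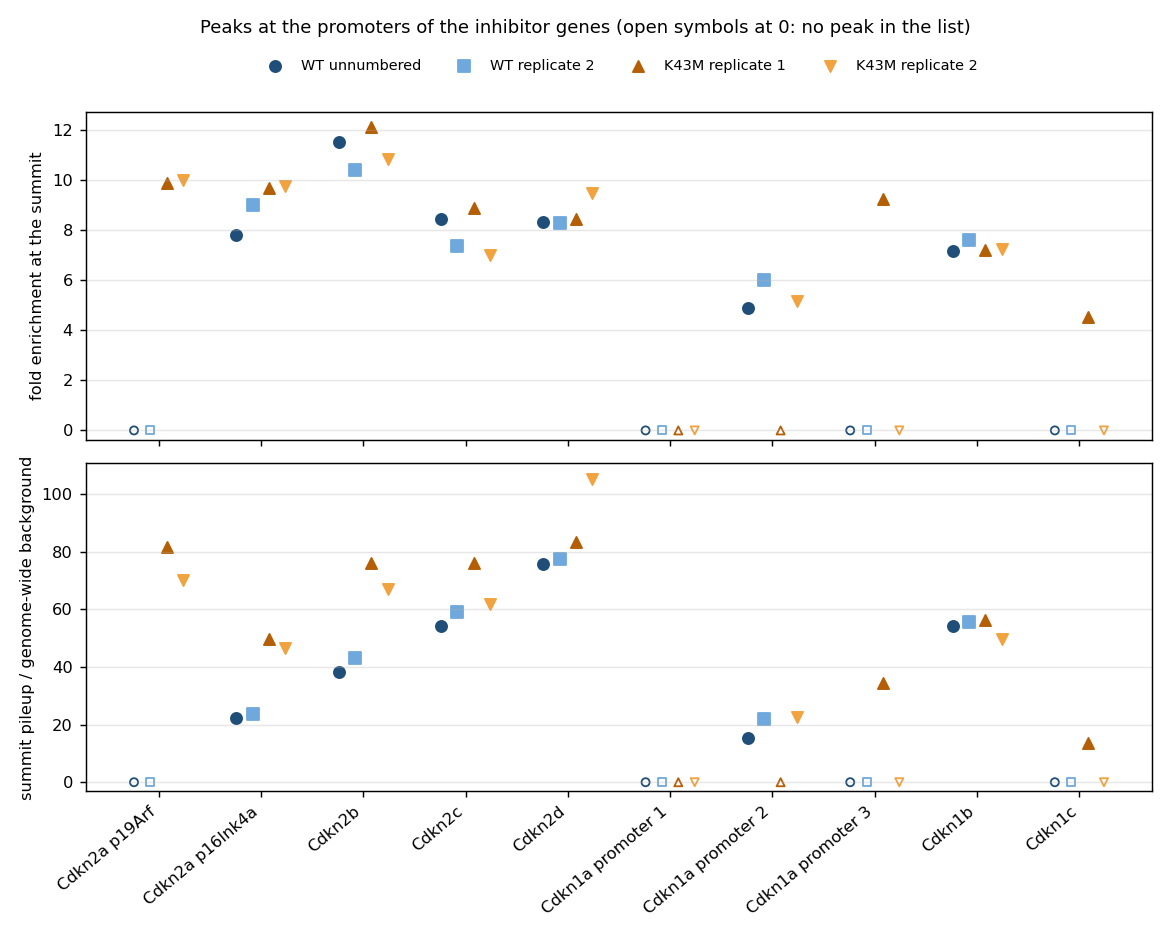
Fold enrichment (top) and summit pileup over the genome-wide background (bottom) at each of the 10 inhibitor promoters, 1 symbol per list. Open symbols at 0 mark a list without a peak. At p19ARF the K43M lists stand at 81.6 and 70.3 times background and both WT lists have no peak.

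At the p19ARF promoter K43M replicate 1 had a peak of 1209 bp at chr4:89294402-89295610, with a fold enrichment of 9.89. Fold enrichment, deposited for each peak, is summit signal divided by the local background of that library. K43M replicate 2 had a peak of 1057 bp at chr4:89294403-89295459, with a fold enrichment of 10.0. The peaks began within 1 base of each other, covered the first exon of the p19ARF transcript in part, and had their summits 153 and 145 bp before the start. By their -log10 q they stood at percentiles 94.5 and 92.5 of their lists, and by the worse of its percentiles this promoter ranked 3 among the 683 K43M-only promoters.

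The summit pileup, the number of extended read ends over the summit, was recovered from the deposited values and was 90 and 68 there. Divided by the genome-wide background of the library it was 81.6 and 70.3. In the WT lists the smallest pileup called at a spot with only genome-wide background was 7 in WT unnumbered and 6 in WT replicate 2, or 5.36 and 5.29 times background. A signal under these limits would not be listed. Where the local background is higher, the limit is higher too. The local WT background at the p19ARF promoter could not be recovered, since there was no WT peak, so these values do not cap the WT signal there. The nearest WT peak was that of WT replicate 2 at chr4:89293419-89293620, in the intron 1033 bp downstream of the start, with a pileup of 10 and a fold enrichment of 5.0.

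The pattern at the p19ARF promoter, a peak in both K43M lists and none in either WT list, was unchanged with a -log10 q of at least 5. It was also unchanged with the same number of peaks per list, a window of 500 bp on both sides, or the summit inside the window. These settings could not have changed it, so they lend it no support. The K43M peaks had -log10 q of 56.4 and 43.7, and the nearest WT peak lay 1033 bp from the start. GC content moved with this pattern across promoters. Among 948 promoters with at least 75% GC in the RefSeq sequence, 4.43% had a peak in the K43M lists alone and 0.316% in the WT lists alone, whereas among 16465 with less GC the shares were 1.76% and 0.407%. The cut of 75% lies below the 78.4% of p19ARF. Promoters above it were also more often open in all lists, 635 of 948 against 7388 of 16465. The median log2 pileup difference, K43M minus WT, was 0.16 for the GC-rich promoters and 0.15 for the others. The part of GC content in the result at p19ARF was not tested.

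Promoters of other genes whose fold enrichments over the 4 lists were nearest to those of p19ARF, by Euclidean distance on the log2 scale, were those of Dglucy (10.0 and 10.1 in the K43M lists) and Src, a tyrosine kinase (9.95 and 9.78), with no peak in either WT list.

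The p16INK4a promoter, 12.5 kb downstream, was open in both genotypes. Its fold enrichments were 7.81 for WT unnumbered, 9.03 for WT replicate 2, 9.69 for K43M replicate 1 and 9.79 for K43M replicate 2. Both K43M values lay above both WT values, with a difference of 0.21 on the log2 scale (means 3.28 ± 0.010 and 3.07 ± 0.15, SD, n = 2 lines each; exact permutation p = 0.333; 0.11 to 0.32 with any 1 list left out). The fold enrichment of 21.3% of the 11149 promoters with a peak in every list was likewise higher in both K43M lists, and that of 18.7% was higher in both WT lists, so this separation is common.

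The summit pileup at p16INK4a set the genotypes further apart. It was 29 and 27 in the WT lists and 55 and 45 in the K43M lists, or 22.2, 23.8, 49.9 and 46.5 times the genome-wide background. The difference was 1.07 on the log2 scale, a ratio of 2.1 (exact permutation p = 0.333). Of the shared promoters 1.55% had a larger one. Leaving out any 1 list gave differences between 1.02 and 1.12. The read ends in the 10 kb around the summit, from which the local background is taken, were 2.17 and 1.85 times the genome-wide background in the WT lists and 4.33 and 3.82 times in the K43M lists, a difference of 1.02 on the log2 scale. The 10 kb include the read ends of the peak itself, so this value is no separate measure of the surroundings. Fold enrichment divides by this local value, and so differed less than the pileup did.

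Cdkn2b, which encodes p15INK4b, was also open in all lists and showed the same contrast between measures. Its peaks spanned the start, with summits within 19 bp of it. Fold enrichments were 11.5 and 10.4 in the WT lists and 12.1 and 10.9 in the K43M lists. The genotypes overlapped and the difference was 0.07 on the log2 scale (exact permutation p = 0.667). Pileups over the genome-wide background were 38.3 and 43.2 in the WT lists and 76.2 and 67.2 in the K43M lists. Here the genotypes did not overlap, with a difference of 0.81 on the log2 scale (exact permutation p = 0.333; 0.72 to 0.91 with any 1 list left out), which 3.33% of the shared promoters exceeded.

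**Figure D2:**
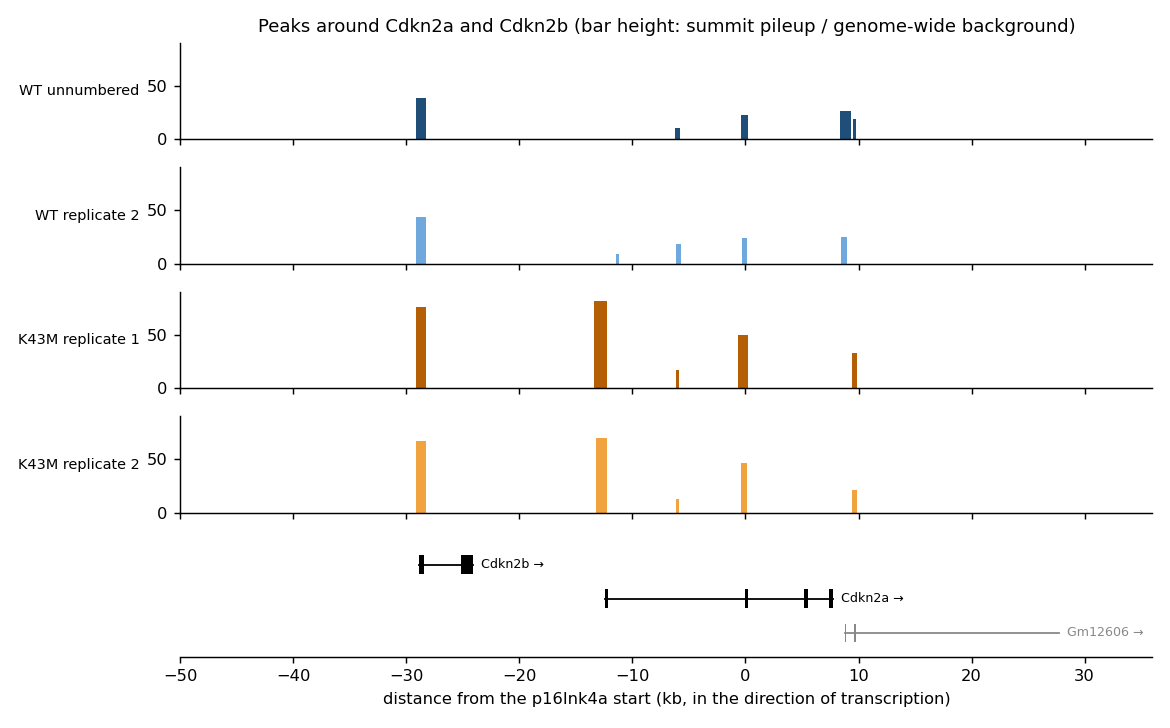
Peaks of the 4 lists around Cdkn2a and Cdkn2b by distance from the p16INK4a start in kb, in the direction of transcription. Bars span the peaks and their height is the summit pileup over the genome-wide background. Boxes are exons. The bar near -13 kb, at the p19ARF start, is present in the K43M rows only.

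Pileup over background was shifted as a whole. Over the 11149 shared promoters its median difference was 0.14 on the log2 scale towards K43M, with 41.0% higher in both K43M lists and 10.1% higher in both WT lists. After each list was centred on its median over the shared promoters, a choice made after seeing the data, these shares were 22.5% and 22.5%. The centred differences were 0.93 at p16INK4a and 0.68 at Cdkn2b, and the genotypes still did not overlap at either.

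In the window of Cdkn2a and Cdkn2b 3 regions had a peak in all lists, with a median log2 pileup difference of 0.81. Within 1 Mb outside it 25 shared regions had a median of 0.22, and 6 of them (24.0%) were higher in both K43M lists. The median over 1363 shared regions of chromosome 4 outside the inhibitor windows was 0.18, and 43.4% of them were higher in both K43M lists, as were 37.4% of all 21012 shared regions. The third shared region of the window, at chr4:89287906-89288445 in the intron between the p19ARF and p16INK4a starts, had pileups of 10.7 and 18.5 times background in the WT lists and 17.2 and 13.4 in the K43M lists, which overlapped. Single regions outside the window, named after their values were seen, differed by as much as that median of 0.81. One 223 kb upstream of the p16INK4a start stood at 29.9 and 33.5 against 65.3 and 62.0, and one 114 kb upstream at 12.2 and 27.3 against 37.2 and 27.9, a log2 difference of 0.82. The number of copies of the locus in each line was not tested.

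Downstream of Cdkn2a, over the non-coding gene Gm12606, the lists split the open chromatin differently. The region chr4:89272822-89273849, 8343 bp from the nearest Cdkn2a start, had a peak in both WT lists and none in the K43M lists. Its fold enrichments were 5.65 and 6.56. The region chr4:89272306-89272768 next to it had a peak in WT unnumbered (4.30), K43M replicate 1 (8.77) and K43M replicate 2 (6.59). Merging peaks up to 100 bp apart joined them into 1 region with a peak in all lists, and no region was then left to the WT lists alone. The same setting raised the K43M-only regions around the inhibitor genes from 2 to 3.

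Cdkn2c encodes p18INK4c, an inhibitor needed for the cell cycle exit of plasma cells. Its promoter was open in all lists, with fold enrichments of 8.45 and 7.38 in the WT lists and 8.91 and 7.01 in the K43M lists. The genotypes overlapped and differed by 0.0017 on the log2 scale (exact permutation p = 1). Pileups over background were 54.4 and 59.1 against 76.2 and 62.0, a difference of 0.28 (exact permutation p = 0.333; 0.13 without K43M replicate 1 and 0.43 without K43M replicate 2) or 0.14 after centring. The gene has a further start 1817 bp downstream, which was merged with the first. Between the starts 3 lists had a separate weaker peak, with fold enrichments of 3.49 in WT unnumbered, 4.38 in K43M replicate 1 and 4.43 in K43M replicate 2. In WT replicate 2 this peak was joined to that of the first start as 1 peak of 1647 bp. A small peak of that list alone, at chr4:109665195-109665458 with a fold enrichment of 2.74, covered the further start itself. The promoter of Faf1, which faces away 8851 bp upstream, was open in all lists, with pileups from 62.8 to 85.5 times background.

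Cdkn2d, which encodes p19INK4d, had the highest pileup of the inhibitor promoters in every list. Its fold enrichments were 8.33 and 8.29 in the WT lists and 8.47 and 9.50 in the K43M lists. The genotypes did not overlap, with a difference of 0.11 on the log2 scale (exact permutation p = 0.333; 0.03 without K43M replicate 2 and 0.19 without K43M replicate 1). Pileups over background were 75.8 and 77.6 in the WT lists and 83.4 and 105 in the K43M lists, a difference of 0.29 (0.12 to 0.46 with any 1 list left out). After centring the genotypes overlapped, with a difference of 0.15 (exact permutation p = 1). A further region open in all lists, 2752 bp from the nearest Cdkn2d start, lay at the promoter of Kri1, with pileups from 58.2 to 70.7 times background.

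Cdkn1a encodes p21CIP1, the best known p53 target among these inhibitors. Of its 3 annotated promoters, the first had no peak in any list. The second, where the main transcript starts, had fold enrichments of 4.91 and 6.02 in the WT lists and 5.16 in K43M replicate 2, and no peak in K43M replicate 1. Its pileups over background were 15.3, 22.0 and 22.7, each below that of every inhibitor promoter open in all 4 lists in the same library. The third promoter was reached only by the edge of a peak of K43M replicate 1 whose summit lay 2307 bp before the start, and it had no peak with its summit in the window. That peak belongs to an intronic region at chr17:29095169-29095973, 1388 bp downstream of the nearest start, which was open in every list. Its fold enrichments were 8.76 and 9.05 in the WT lists and 9.24 and 7.86 in the K43M lists, each above those of the second promoter.

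Upstream of Cdkn1a lies Trp53cor1, which encodes the p53-induced lincRNA-p21. The region chr17:29078901-29079286 at a promoter of Trp53cor1, 11690 bp from the nearest Cdkn1a start, had a peak in both K43M lists and in neither WT list. Fold enrichments were 5.19 in K43M replicate 1 and 6.12 in K43M replicate 2. Pileups were 11.8 and 17.6 times background, low beside 81.6 and 70.3 at p19ARF. It was the other of the 2 K43M-only regions around the inhibitor genes and fell outside the windows when the flanks were 10 kb. A region at chr17:29071775-29072206, also in Trp53cor1, was open in all lists, as was one 13418 bp downstream of the nearest Cdkn1a start.

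Cdkn1b encodes p27KIP1, whose level is set largely by protein degradation. Its promoter was open in all lists with nearly equal values. Fold enrichments were 7.17 and 7.62 in the WT lists and 7.22 and 7.25 in the K43M lists, a difference of -0.03 on the log2 scale with overlapping genotypes (exact permutation p = 1). Pileups over background were 54.4 and 55.5 against 56.2 and 49.6, a difference of -0.06 (exact permutation p = 1). It was -0.15 without K43M replicate 1 and 0.03 without K43M replicate 2. After centring, the genotypes did not overlap, with both WT lists higher and a difference of -0.19 (exact permutation p = 0.333). A second region open in all lists lay at the promoter of the non-coding gene Lockd, 7515 bp downstream of the nearest Cdkn1b start. Its pileups were 50.5 and 63.5 times background in the WT lists and 75.3 and 68.2 in the K43M lists. The K43M values were both higher, with a difference of 0.34 before centring. Of all shared regions 37.4% were likewise higher in both K43M lists, with a median difference of 0.14 over all of them.

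Cdkn1c encodes p57KIP2 and is imprinted, with expression mainly from the maternal copy. Its promoter had a peak in K43M replicate 1 only, with a fold enrichment of 4.52, which by -log10 q stood at percentile 16.8, and a pileup of 13.6 times background. A region 5108 bp upstream of the start was open in every list, with fold enrichments of 6.13 and 5.92 in the WT lists and 4.59 and 5.58 in the K43M lists. Both WT values were higher. Its pileups had the opposite order, at 14.54 and 14.99 times background in the WT lists and 15.42 and 24.80 in the K43M lists, a log2 difference of 0.41. This order is common, as 37.4% of all shared regions were higher in both K43M lists. Cdkn1c had the fewest regions of the 7 genes, 3 in its window.

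**Figure D3:**
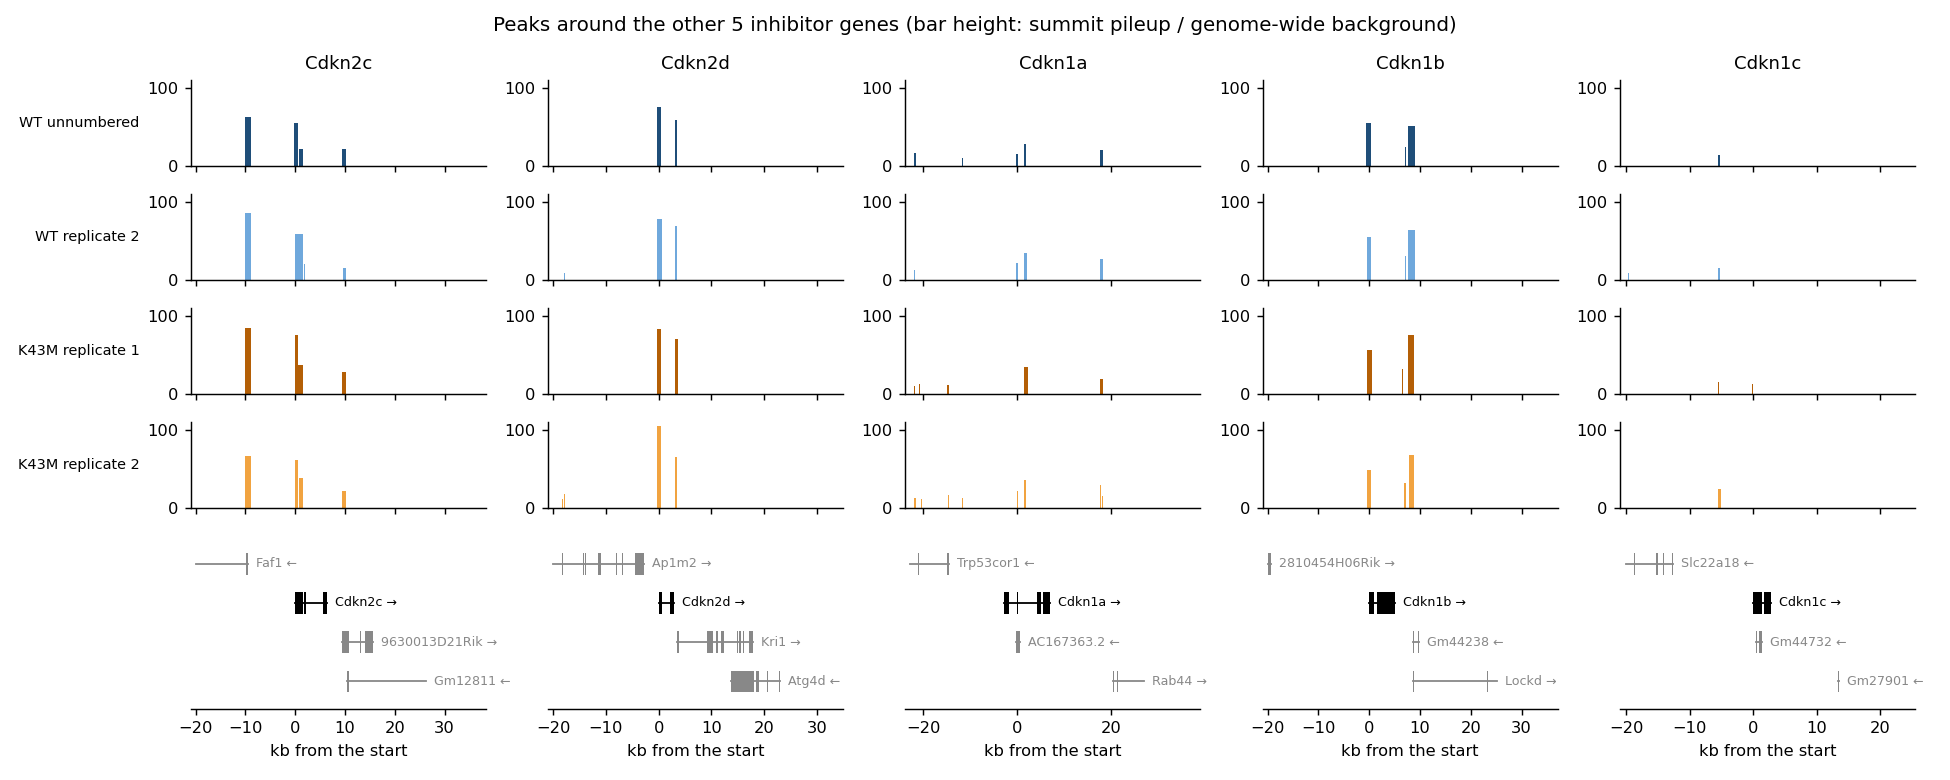
Peaks of the 4 lists around Cdkn2c, Cdkn2d, Cdkn1a, Cdkn1b and Cdkn1c by distance in kb from a start of the gene, which is the second promoter for Cdkn1a. Bars span the peaks, bar height is the summit pileup over the genome-wide background, and arrows give the direction of genes relative to the inhibitor gene. Cdkn2d reaches 75.8 to 105 times background, whereas the Cdkn1c column holds peaks of 8.82 to 24.8 only.

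Over all 7 windows, 14 of the 30 regions (46.7%) had a peak in every list, against 41.2% of all regions. In both K43M lists alone were 2 regions (6.67%, against 7.64% of all regions) and in both WT lists alone 1 region (3.33%, against 4.51%). These shares are near those of all regions. The other 13 had a peak in some lists, 8 of them in a single list. Without K43M replicate 1 or 2 the K43M-only regions numbered 4 and 5, and WT-only regions numbered 4 without WT unnumbered and 3 without K43M replicate 2. The shares of all regions with a list left out were not computed. Peaks of the WT lists covered 12545 and 12703 bases of the windows, and those of the K43M lists 13597 and 12789. The K43M lists covered 569 bases more on average (13193 ± 571 against 12624 ± 112, SD, n = 2 lines each; exact permutation p = 0.333), which became 165 without K43M replicate 1 and 973 without K43M replicate 2. Per Mb of peaks in the list the values were 709, 731, 686 and 744, and the difference was -5.08 with overlapping genotypes (exact permutation p = 1).

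**Figure D4:**
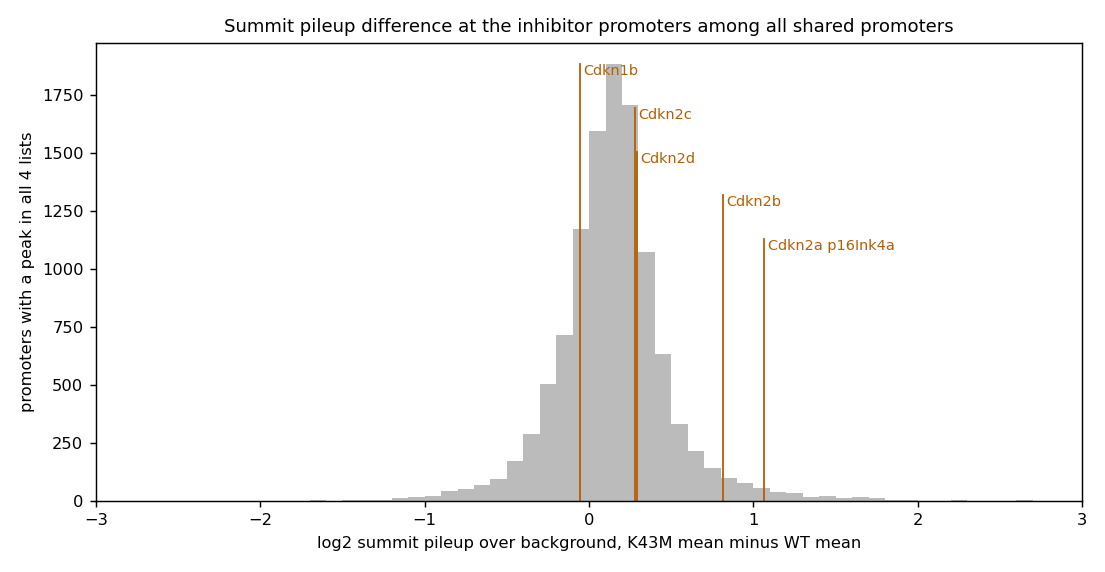
Number of promoters with a peak in all 4 lists (grey, 11149 in all, bins of 0.1) by the difference in log2 summit pileup over background, K43M mean minus WT mean. Lines mark the 5 inhibitor promoters with a peak in every list. Cdkn2b and p16INK4a lie at 0.81 and 1.07, above the 95th percentile of 0.69, and the others lie between -0.06 and 0.29.

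Genes that act with the inhibitors were read at their promoters for context, in lists of RB pathway genes, p53 regulators, p27 turnover genes, and repressors and activators of inhibitor genes. Of 48 such genes, 43 had a promoter peak in all 4 lists, against 47.6% of all protein-coding genes. None had one in the K43M lists alone (2.00% of all genes) or in the WT lists alone (0.515%). The RB pathway list had 14 of 15 genes open in every list, among them Cdk4, Cdk6 and the D-type cyclins, and E2f2 had a peak in WT unnumbered only, with a fold enrichment of 4.20. The list on p53, with Trp53, Mdm2, Mdm4 and Npm1, and that on p27 turnover, with Skp2, Cks1b, Cul1 and Fbxw7, were open throughout.

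Among 14 repressors of the locus, 11 were open in every list, including Bmi1, Ezh2, Eed and Suz12 of the Polycomb complexes. Pcgf2, another Polycomb gene, had a peak in every list except WT replicate 2, with fold enrichments of 3.44 in WT unnumbered, 3.08 in K43M replicate 1 and 3.78 in K43M replicate 2. Tbx2 and Tbx3, T-box repressors of p19ARF, had none. Among 11 activators, 10 were open in every list and Kdm6b, a demethylase of the Polycomb mark, had no peak. Of the neighbours, Mtap, Faf1 and Gpr19 were open in every list, and Dmrta1, Phlda2 and Slc22a18 had no promoter peak.

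The 5 lists had 49 promoters with a peak in every list. Their fold enrichment was higher in both K43M lists at 11 (22.4%, against 21.3% of all shared promoters) and in both WT lists at 8 (16.3%, against 18.7%). The median difference was 0.06 on the log2 scale, against 0.0069 over all shared promoters. Their centred pileup was higher in both K43M lists at 13 (26.5%, against 22.5%) and in both WT lists at 8 (16.3%, against 22.5%), with a median difference of 0.05. Of the 13, 7 were among the 16 promoters of repressors (43.8%), of which 3 were higher in both WT lists. The RB pathway had 2 of 15, the p53 list 1 of 4, p27 turnover 1 of 4 and activators 2 of 10. Differences between the gene lists were not tested. The largest centred difference among the 49 promoters was 0.87, at a promoter of Kdm2b, a repressor of the locus that recruits Polycomb complexes to CpG islands. In the list of activators the largest was 0.78, at Ets2. At p16INK4a it was 0.93. Accessibility of a promoter is not a measure of its transcript, and expression of these genes was not analysed here.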

How the data were processed

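ATAC-seq libraries of 4 BCR::ABL1+ pre/pro-B-cell lines were deposited as 4 lists of peaks, 1 per library. The authors trimmed reads with Trimmomatic 0.36, mapped them to mm10 with BWA 0.7.15, removed blacklisted regions with bedtools and reads of several positions or low mapping quality with SAMtools 1.3.1, and called peaks with MACS2 2.1.0, shifting read ends by -100 and extending them to 200 bp, which centres a window on each cut. The deposited fold enrichment of a peak is the authors' ratio of its summit to the local background, each with a pseudocount of 1. The authors also deposited -log10 p and -log10 q values of each peak, which were used here to rank and filter peaks within a list and not as tests between libraries. Replicates were not pooled.

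Groups came from the labels of 3 libraries. The list without a label was placed with Cdk6+/+ from the text of the series, which says that the first WT line was reanalysed. The inhibitor genes, the lists of other genes and the motifs were chosen with earlier results of these data known. Every promoter of the 7 genes was described. Other genes of the lists were named with values where their promoter was not open in all lists. Kdm2b and Ets2 were named after their values were seen. Of the 3 promoters of other genes nearest in pattern to p19ARF, 1 is not reported here. Promoters and exons came from GENCODE mouse release 21, whereas the authors used release 13; both describe the build of the lists. A peak counted where it overlapped a window by 1 bp, and the peak with the highest fold enrichment represented a promoter. Regions were overlapping peaks of the 4 lists merged.

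Peak lists hold no read totals. The summit pileup and local background were therefore recovered from fold enrichment and -log10 p by the Poisson model of MACS2, to within 0.01 in -log10 p, for 100% of the peaks of each list. Pileup was divided by the lowest background of the list. Genotypes were compared by exact two-sided permutation over the 4 lists. Alternatives varied the windows and flanks, the transcripts, the merging, the measure, the libraries, and the threshold and number of peaks. The code was tested on simulated data. Python 3.11.15, numpy 2.4.6, pandas 2.3.3, scipy 1.17.1 and matplotlib 3.10.9 were used.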

Additional observations from a re-analysis of the deposited data

How the results depend on the processing

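The 5 inhibitor promoters open in every list and the K43M-only pattern at p19ARF kept their counts with a -log10 q of at least 5, with 33038 peaks in each list, with the summit required inside the window, and with protein-coding transcripts only. The settings on q, peak number and summit could neither add a WT peak at p19ARF nor drop its high-ranking K43M peaks. Windows of 500 bp could not either, as the nearest WT peak lay 1033 bp from the start. With windows of 500 bp the starts of Cdkn2c counted apart and 6 were open in every list. With any 1 list left out, 5 to 6 promoters were open in all remaining lists, 1 to 3 in the K43M lists alone and 0 to 1 in the WT lists alone. Shares over all promoters and all regions with a list left out were not computed. The 3 arose without K43M replicate 2, when the peaks found in K43M replicate 1 alone at Cdkn1c and the third promoter of Cdkn1a joined p19ARF. Regions open in all lists numbered 14 to 16 with 1 list left out and 24 with 50 kb flanks. K43M-only regions numbered 2 to 5 with 1 list left out (4 without K43M replicate 1 and 5 without K43M replicate 2), 1 with 10 kb flanks and 4 with 50 kb flanks. WT-only regions numbered 1 to 4 with 1 list left out (4 without WT unnumbered and 3 without K43M replicate 2), 2 with a -log10 q of at least 5, and 0 with merging up to 100 bp apart, where K43M-only regions numbered 3.

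The difference in peak bases ran from 165 without K43M replicate 1 to 973 without K43M replicate 2, was 198 with 10 kb and 1138 with 50 kb flanks, and turned to -5.08 per Mb of peaks. Of the 5 shared promoters, 4 had a higher mean fold enrichment in K43M, and 2 to 4 did with 1 list left out (2 without K43M replicate 1). The log2 difference changed sign at Cdkn1b (-0.074 without WT unnumbered, -0.033 to 0.013 with another list left out; 0.013 without WT replicate 2), at Cdkn2c (-0.17 to 0.17; -0.097 without WT replicate 2 and -0.17 without K43M replicate 1) and at Cdkn2b (-0.014 to 0.15; -0.0072 and -0.014 without the same lists). At Cdkn2d it was 0.028 to 0.19. The cause was not tested. Of the pathway genes, 43 were open in every list, and no gene was in the lists of 1 genotype alone, also with the same number of peaks per list and with windows of 500 bp. Of 111 planned recalculations, 93 kept their sign, for a difference, or stayed within 1.5 times, for a count. This tally is not a rate of robustness, because some settings could hardly change their result. With windows of 500 bp, for example, the fold differences at the 5 shared promoters were the same values as in the main setting. No paired analysis was possible because 1 WT list carries no replicate number in the labels, and the numbers mark separate lines. Values rest on 2 lines per genotype, a peak that misses the threshold of MACS2 is not listed, and depth differed between libraries by the background given above.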
